A study of Mus musculus with 10 samples.

Results

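The genes described here are 10 components of Toll-like receptor signalling, namely the receptors Tlr1, Tlr2, Tlr3, Tlr4, Tlr6, Tlr7 and Tlr9, the co-receptors Ly96 and Cd14, and the adaptor Myd88. They were taken by gene symbol from a table of read counts for 25178 genes, and all 10 symbols were found there. Their RNA was measured in bone marrow cells depleted of mature lineages, which the labels describe as hematopoietic stem and progenitor cells. The cells came from 1 hindlimb of each of 5 female and 5 male C57/BL6 mice at steady state, and each mouse gave 1 library. Sex was the only factor that the labels give as differing between the groups, and no source used here gives the age of the mice. The question was whether blood progenitors of females and males differ at steady state.

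Toll-like receptors are membrane proteins that bind molecules typical of microbes. TLR1, TLR2, TLR4 and TLR6 act at the cell surface, where TLR2 pairs with TLR1 or TLR6 to bind bacterial lipopeptides and TLR4 binds lipopolysaccharide together with MD-2, the product of Ly96, and CD14. TLR3, TLR7 and TLR9 act in endosomes and bind nucleic acids. All of these receptors except TLR3 signal through the adaptor MyD88, which leads to activation of NF-kB and, from endosomes, of interferon regulatory factors. Hematopoietic stem and progenitor cells of the mouse are known to carry some of these receptors and to respond to their ligands, and monocytes, macrophages, neutrophils and dendritic cells carry them too.

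The labelled cell type was checked against 8 stem and progenitor markers, among them Kit, Cd34, Myb and Gata2, none of which was at 0. Their summed level ran between 771 and 998 CPM (counts scaled to library size) in females and between 639 and 930 CPM in male mice. Markers of mature cells were present as well. The 10 mature neutrophil markers summed to between 260 and 967 CPM in female mice and between 211 and 8729 CPM in male mice, with male replicate 1 highest. Libraries held between 20754101 and 24759687 counts. Male replicates 1 and 2 stood apart on the first principal component, with scores of 35.3 and 36.7 against at most 6.04 in the other 8 libraries, so results for the members are given with and without them.

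Tlr1 and Tlr6 lie beside each other on chromosome 5, at chr5:64924679-64933563 and chr5:64952031-64960097 of GRCm38, both on the minus strand. Their coding sequences share a stretch of 229 identical bases, shown because a read that falls wholly within it has the same letters in both genes. In Tlr1 it spans chr5:64925537-64925765, in exon 4 of 4, and covers bases 1468 to 1696 of a coding sequence of 2385 bases. In Tlr6 it spans chr5:64953828-64954056, in exon 2 of 2, and covers bases 1507 to 1735 of 2418.
Tlr1 and Tlr6: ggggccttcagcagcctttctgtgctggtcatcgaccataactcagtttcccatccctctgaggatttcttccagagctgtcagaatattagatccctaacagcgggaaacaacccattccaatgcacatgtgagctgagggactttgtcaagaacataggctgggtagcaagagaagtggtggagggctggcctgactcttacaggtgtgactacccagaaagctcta
Of the 50-base words in the longest Tlr1 transcript 15.3% also occurred in Tlr6, and 12.5% of the words of Tlr6 occurred in Tlr1. The other 35 pairs among the 9 members compared, from which Cd14 was left out, shared 0 such words, and their longest common run had 18 bases. How the authors treated reads that match both genes was not given in the sources used here, so the counts of Tlr1 and Tlr6 are uncertain to that extent.

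RefSeq promoter windows of GRCm38.p6, which run from 250 bases before to 50 bases after a gene's start, were matched for 6 of the 10 members. The windows of Tlr2, Tlr9 and Myd88 are shown. Among the members these are the receptor with the highest mean level, the only tested gene with a higher mean in females, and the common adaptor. Capitals mark matches, on either strand, to 3 short motifs, which are GGGNNTTCC for NF-kB, GAAANNGAA for interferon regulatory factors (IRF) and GAGGAAGT for the myeloid and lymphoid factor PU.1.
Tlr2, chr3:83841559-83841858, minus strand: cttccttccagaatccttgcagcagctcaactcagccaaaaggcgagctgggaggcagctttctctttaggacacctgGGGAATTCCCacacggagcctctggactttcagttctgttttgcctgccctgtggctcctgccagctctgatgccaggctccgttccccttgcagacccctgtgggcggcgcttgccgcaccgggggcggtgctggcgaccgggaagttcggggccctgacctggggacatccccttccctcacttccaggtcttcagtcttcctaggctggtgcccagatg
Tlr9, chr9:106222348-106222647, plus strand: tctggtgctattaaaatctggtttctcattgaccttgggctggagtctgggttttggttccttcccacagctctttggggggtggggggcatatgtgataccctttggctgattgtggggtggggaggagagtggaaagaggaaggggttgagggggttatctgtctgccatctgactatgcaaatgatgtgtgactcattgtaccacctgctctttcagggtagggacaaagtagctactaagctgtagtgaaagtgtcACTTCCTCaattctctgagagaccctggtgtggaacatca
Myd88, chr9:119339969-119340268, minus strand: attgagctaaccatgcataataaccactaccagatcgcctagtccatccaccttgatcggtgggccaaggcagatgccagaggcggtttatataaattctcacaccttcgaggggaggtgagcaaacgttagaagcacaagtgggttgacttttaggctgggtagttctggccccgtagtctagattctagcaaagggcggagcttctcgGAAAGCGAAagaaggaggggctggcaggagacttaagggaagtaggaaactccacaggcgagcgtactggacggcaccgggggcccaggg
The Tlr2 window held the NF-kB motif on both strands in overlapping positions, beginning 172 bases before the start. The Tlr9 window held the PU.1 motif on the opposite strand, beginning 10 bases after the start, and the Myd88 window held the IRF motif, beginning 40 bases before it. Among all 32851 promoter windows of this length 5.82% held the NF-kB motif, 8.56% the IRF motif and 3.20% the PU.1 motif. Of the other windows, 1 of the 2 for Tlr1 held the PU.1 motif, 1 of the 2 for Tlr6 held the IRF motif at 2 overlapping places, and that for Tlr3 held none of the 3. The Tlr2 window had 62.0% G and C with 11 CpG dinucleotides, the Myd88 window 54.0% with 13, and the Tlr9 window 49.7% with 0, against medians of 52.7% and 7 over all windows. These matches describe the letters only, and no binding was measured.

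None of the 9 genes that could be tested passed the test between females and males. Most receptors and both co-receptors had a lower mean in females, Tlr9 had a higher one, and the means of Myd88 were 34.4 ± 0.516 CPM in female mice and 37.8 ± 4.61 CPM in male mice (n = 5 per sex, SD). Of the 9 members with enough counts to be tested, which excludes Tlr3, 0 were called at an adjusted p under 0.05 by edgeR's quasi-likelihood test, by DESeq2 or by limma-voom, and 0 had an unadjusted p under 0.05 by any of them. Over all 14674 genes tested the same edgeR rule called 8, or 0.0545%, of which 3 (0.0204%) were higher and 5 (0.0341%) lower in females. DESeq2 called 60 of 17827, or 0.337%, and limma-voom 8, or 0.0545%. An unadjusted p under 0.05 was found for 9.17% of the genes by edgeR, with 3.76% higher and 5.41% lower in females, for 7.32% by DESeq2 and for 8.42% by limma-voom. Females and males overlapped in each of the 10 members, while all 5 females lay apart from all 5 males in 1.93% of the genes tested. The fold change, female over male, was negative for 8 of the 9 tested members with a median of -0.51 on the log2 scale, against 52.0% of all genes and a median of -0.01. In RNA from bulk samples, fewer cells of a type and less RNA per cell cannot be told apart.

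Levels were set between genes as CPM per kilobase of exon. Myd88 averaged 14.0 ± 1.38 CPM per kilobase (SD, n = 10 mice) and was far above every receptor, at the 72.7th percentile of the genes tested. Tlr2 followed with 1.45 ± 0.962 and had the highest mean of the receptors among the members, at the 26.5th percentile. Ly96 averaged 0.831 ± 0.554, Cd14 0.628 ± 0.421 and Tlr9 0.606 ± 0.282 CPM per kilobase. The order closed with Tlr6 at 0.463 ± 0.267, Tlr7 at 0.339 ± 0.277, Tlr4 at 0.298 ± 0.171 and Tlr1 at 0.252 ± 0.0691. Tlr3, the receptor for double-stranded RNA, was lowest at 0.0306 ± 0.017, with 37 counts in the 10 libraries together. The ranges over mice of neighbours in this order overlapped, except between Myd88 and Tlr2 and between Tlr1 and Tlr3. Cd14 was above Tlr9 in 4 of 10 mice and Tlr4 above Tlr1 in 5 of 10, so those places in the order are not settled. With the longest transcript in place of all exons Tlr4 and Tlr7 traded places, and the level of Ly96 was 1.27 CPM per kilobase, so ratios that involve Ly96 depend on the length used.

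**Figure D1:**
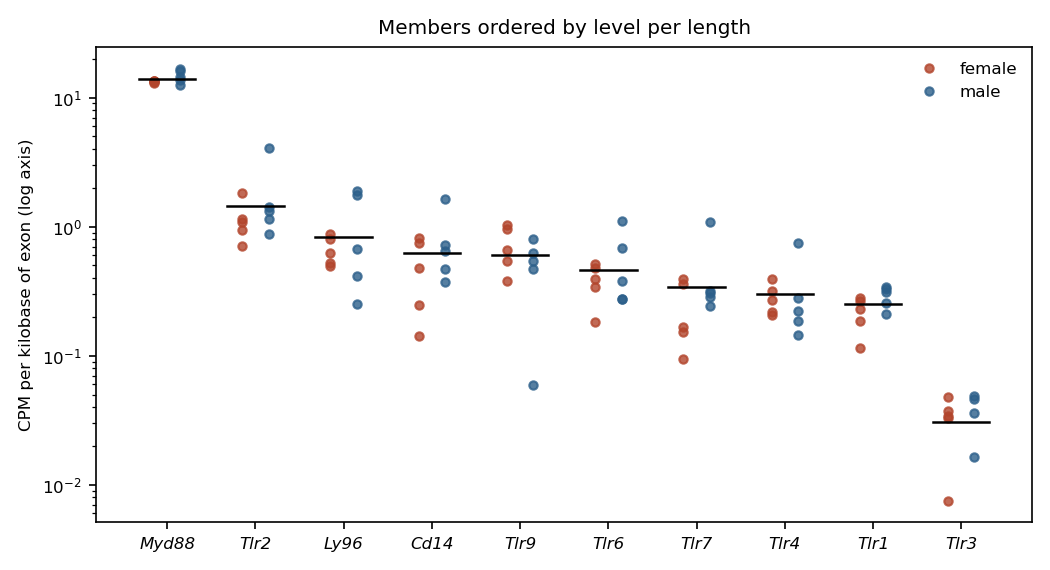
The level of each member in CPM per kilobase of exon (log axis) is drawn for each female (left of each pair) and male mouse, with the mean of 10 mice as a black line; male replicate 2, with 0 counts of Tlr3, cannot be drawn on this axis. Myd88 lies between 12.5 and 16.8 and Tlr3 at most at 0.0483, and the other 8 genes overlap their neighbours.

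Within a mouse the receptors kept some proportions and not others. Tlr2 exceeded Tlr4 per kilobase in 10 of 10 mice, by a ratio with a median of 5.08 and a range of 2.93 to 7.0. Of the partners of TLR2, Tlr6 exceeded Tlr1 in 9 of 10 mice with a median ratio of 1.81, the exception being female replicate 1 at 0.786. Ly96, which encodes the lipopolysaccharide-binding partner of TLR4, exceeded Tlr4 in 10 of 10 mice, with a ratio between 1.13 in male replicate 3 and 10.1 in male replicate 2. Myd88 exceeded Tlr2 by between 4.01 times in male replicate 1 and 19.0 times in female replicate 2. These ratios were chosen after the values were seen and were not tested between the sexes.

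Among the cell surface receptors, Tlr2 (chr3:83836272-83841767) had 3.25, 2.15, 3.46, 2.81 and 5.51 CPM in female mice and 12.2, 3.95, 3.46, 4.25 and 2.63 CPM in male mice. Male replicate 1 was far above the other 9 mice, which overlapped. The means were 3.44 ± 1.27 CPM in female mice and 5.29 ± 3.89 CPM in male mice (n = 5 per sex, SD), and edgeR gave a log2 fold change of -0.62 (SE 0.40, 95% interval -1.5 to 0.25, adjusted p = 0.514). Without male replicates 1 and 2 the male mean was 3.45 CPM and the fold change -0.01.

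Tlr1, which pairs with TLR2 to bind triacylated lipopeptides, had 0.776, 0.619, 0.385, 0.893 and 0.939 CPM in female mice and 1.13, 1.09, 0.854, 1.04 and 0.704 CPM in male mice. Female replicate 3 was lowest, and 3 of the 5 males were above every female. These levels rest on 9 to 27 counts per library, so counting alone gives a coefficient of variation of 22.8% beside the 27.4% observed. The edgeR log2 fold change was -0.42 (SE 0.28, adjusted p = 0.519), and it kept its sign without male replicates 1 and 2, at -0.27.

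Tlr6, the partner of TLR2 for diacylated lipopeptides, had 0.679, 1.28, 1.45, 1.79 and 1.92 CPM in female mice and 4.11, 1.40, 1.02, 2.57 and 1.03 CPM in male mice. Male replicates 1 and 4 were highest and the other 3 males lay within the range of the females. The log2 fold change was -0.51 (SE 0.41, adjusted p = 0.565 by edgeR), and -0.12 without male replicates 1 and 2.

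Tlr4 (chr4:66827584-66930284), the lipopolysaccharide receptor, had 1.5, 1.16, 2.18, 1.21 and 1.76 CPM in female mice and 4.11, 1.04, 1.24, 1.56 and 0.798 CPM in male mice. The highest and the lowest level both belonged to males, and male replicate 1 alone was above every female. The edgeR log2 fold change of -0.17 (SE 0.41, adjusted p = 0.840) turned to 0.42 without male replicate 1 and to 0.37 without male replicates 1 and 2, so no direction can be given for Tlr4.

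Of the co-receptors, Cd14 (chr18:36725067-36726798), which hands lipopolysaccharide to MD-2 and TLR4, had 0.825, 0.248, 0.427, 1.29 and 1.41 CPM in female mice and 2.85, 1.25, 0.811, 0.641 and 1.13 CPM in male mice. Male replicate 1 was highest, and the other 4 males lay between the lowest and the highest female. The log2 fold change was -0.66 (SE 0.50, adjusted p = 0.544 by edgeR), and -0.02 without male replicates 1 and 2. Ly96 (chr1:16688051-16709611) had 0.825, 0.537, 0.641, 0.893 and 0.508 CPM in female mice and 1.80, 1.92, 0.256, 0.682 and 0.422 CPM in male mice. Male replicates 1 and 2 were above every female, and male replicates 3 and 5 were below every female. Its edgeR log2 fold change of -0.57 (SE 0.50, adjusted p = 0.584) was 0.56 without those highest males, so its sign rests on them. Ly96 had between 6 and 43 counts per library.

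Among the endosomal receptors, Tlr7 (chrX:167304929-167330558), which binds single-stranded RNA, had the most negative fold change of the 9 tested genes with all mice included. It had 0.388, 0.619, 0.684, 1.47 and 1.60 CPM in female mice and 4.41, 1.25, 0.982, 1.28 and 1.17 CPM in male mice. Male replicate 1 was highest, and the other 4 males lay between the lower 3 and the upper 2 females. The log2 fold change was -0.92 (SE 0.50, 95% interval -2.01 to 0.16, adjusted p = 0.506 by edgeR). Leaving out male replicate 1 gave -0.29, smaller in size than the 0.73 of Tlr9 and the 0.42 of Tlr4 in that fit, and leaving out male replicates 1 and 2 together gave -0.26. Tlr7 is X-linked, and its mean was 0.954 ± 0.547 CPM in female mice and 1.82 ± 1.45 CPM in male mice (n = 5 per sex, SD).

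Tlr9 (chr9:106222598-106226883), which binds DNA with unmethylated CpG, had 1.89, 1.32, 3.33, 2.28 and 3.56 CPM in female mice and 2.81, 0.208, 1.88, 2.16 and 1.64 CPM in male mice. The 2 highest mice were females, and male replicate 2 was lowest with 4 counts against 32 to 91 in the other libraries. The log2 fold change was 0.50 (SE 0.46, 95% interval -0.51 to 1.51, adjusted p = 0.600 by edgeR). It was 0.23 without male replicate 2, 0.73 without male replicate 1 and 0.38 without both. Tlr3 had 4, 6, 4, 4 and 1 counts in females and 6, 0, 2, 6 and 4 counts in males, too few to be tested. A count of 0 in male replicate 2 allows up to 0.156 CPM, taking 3 counts as the limit, which is near the mean of 0.166 CPM in female mice and 0.153 CPM in male mice.

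Myd88 (chr9:119335934-119341411) had the lowest coefficient of variation of the 10 genes over all mice, at 9.89%, and also the most counts. Counting alone gives more variation in genes with fewer counts, such as 22.8% for Tlr1 and 52.0% for Tlr3. This rank therefore does not compare evenness between genes on equal terms. Myd88 had 34.7, 34.8, 34.7, 33.6 and 34.2 CPM in female mice and 41.7, 43.2, 36.8, 32.1 and 35.0 CPM in male mice. The females lay within a narrow band, and the males lay on both sides of it with male replicates 1 and 2 highest. The coefficient of variation was 1.5% over females and 12.2% over males, where counting alone gives 3.49%. The edgeR log2 fold change was -0.13 (SE 0.094, 95% interval -0.34 to 0.07, adjusted p = 0.527), and -0.01 without male replicates 1 and 2. On the opposite strand the exons of Acaa1a, a peroxisomal thiolase gene, overlap 11.3% of the exon bases of Myd88. Acaa1a had 53.6 ± 2.21 CPM in female mice and 53.7 ± 5.97 CPM in male mice (n = 5 per sex, SD). The strand setting behind the counts was not given in the sources used here, so reads from the overlap may belong to either gene.

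**Figure D2:**
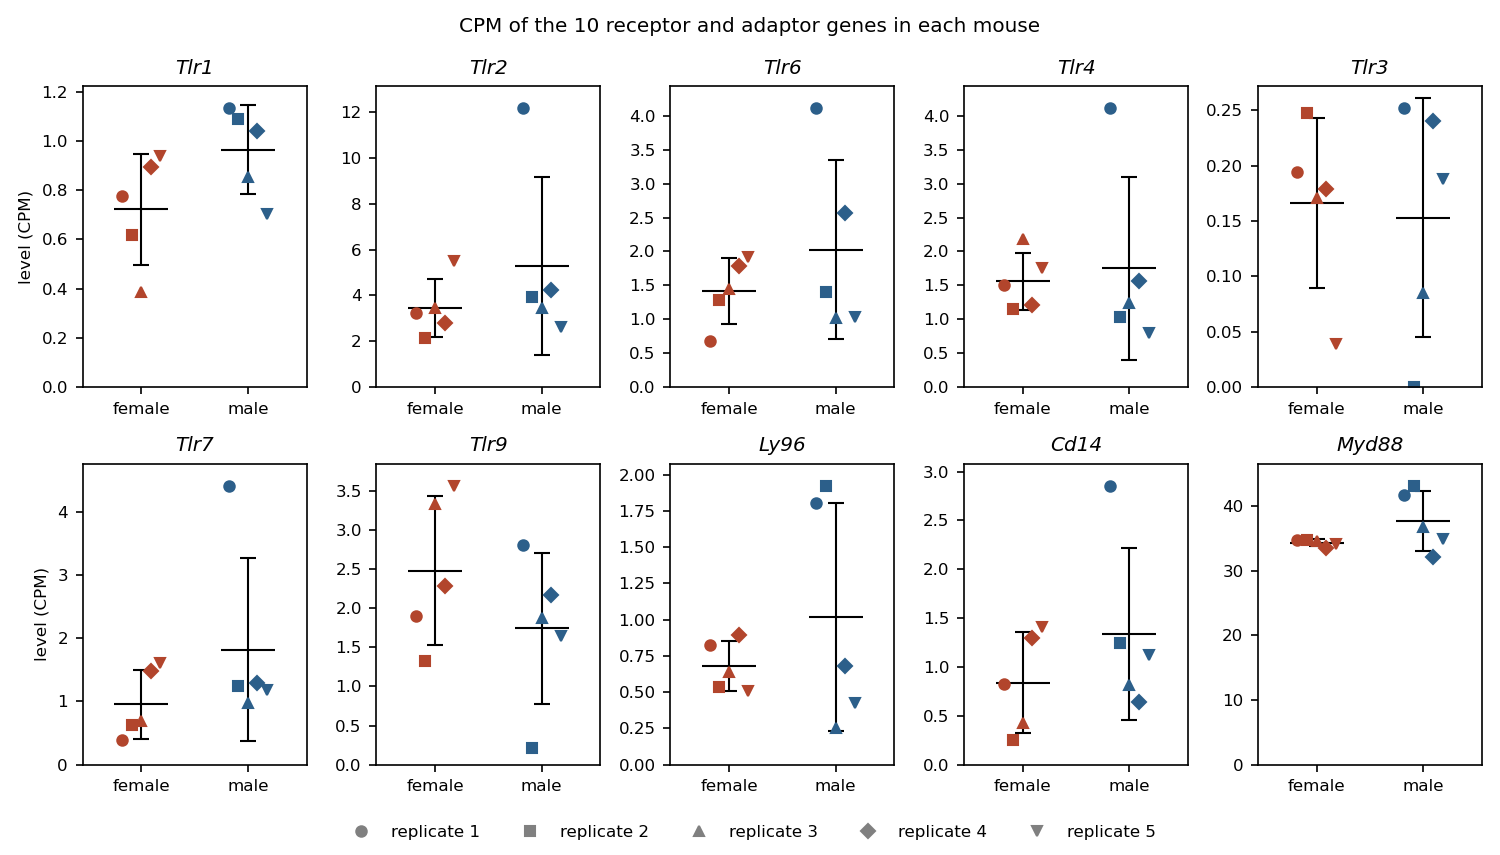
Each panel plots the CPM of 1 gene on a linear axis from 0 for the 5 females (left) and the 5 males (right), with marker shapes for replicate numbers and bars for mean and SD. Male replicate 1 (circle) is the highest mouse for 7 of the 10 genes, and the sexes overlap in each panel.

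**Figure D3:**
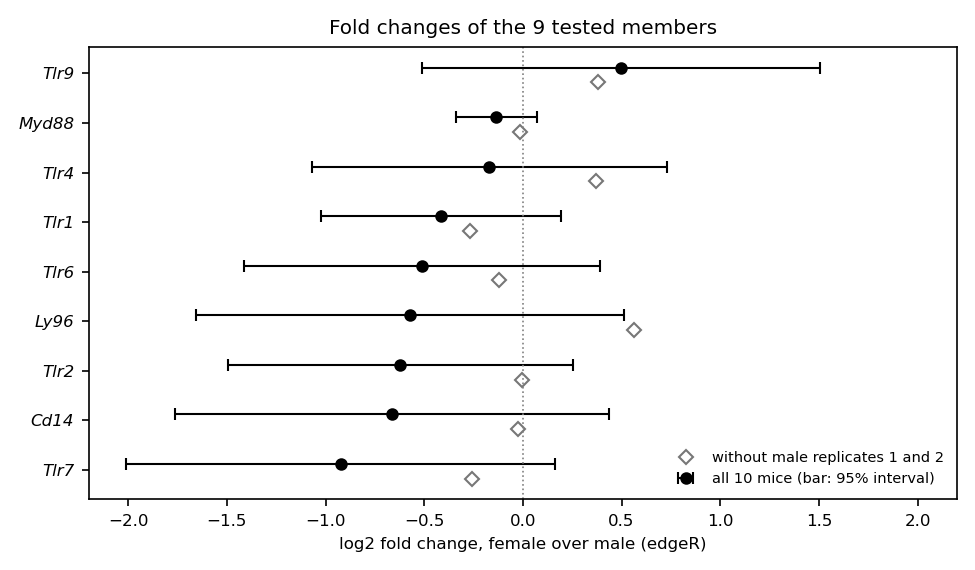
Filled points with bars give the log2 fold change, female over male, of the 9 tested members with its 95% interval by edgeR; open diamonds give it without male replicates 1 and 2. Each interval spans 0, and the median of the 9 fold changes is -0.51 with all mice and -0.01 without these 2 males.

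Single libraries set many of the highest values. Male replicate 1 was the highest mouse for 7 of the 10 members and male replicate 2 for 2, Ly96 and Myd88. Male replicate 1 was above the mean log2 level for 9 of 9 tested members, female replicate 5 for 7 and female replicate 2 for 0. The levels of the 7 receptors summed to between 7.39 and 15.3 CPM in female mice and between 8.17 and 29.0 CPM in male mice, with male replicate 1 highest. Without male replicates 1 and 2 the fold change was negative for 6 of the 9 tested members. The coefficient of variation of Tlr2 over all mice was 66.4%, against 9.94% from counting, and 30.5% without these 2 males.

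Most pairs of members had a positive correlation across the 10 libraries, and fewer had one without male replicates 1 and 2. Over the 10 libraries the Pearson correlation of log2 CPM was above 0 for 33 of the 36 pairs of tested members, with a median of 0.47. Over the 8 libraries without male replicates 1 and 2 it was above 0 for 21 pairs, with a median of 0.21. Tlr6 and Tlr7 were the most alike with all 10 libraries, at r = 0.86, and r = 0.72 over 8. Tlr2 and Tlr4 had r = 0.84 over 10 libraries and 0.63 over 8. Tlr9 ran against Myd88 at r = -0.58 over 10 libraries and -0.25 over 8, and with Tlr2 at 0.24 over 10 and 0.78 over 8. All pairs share the same libraries and scaling factors, and no test was made of these values. The share of positive pairs among all genes was not computed, so these counts cannot be read as particular to the members.

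**Figure D4:**
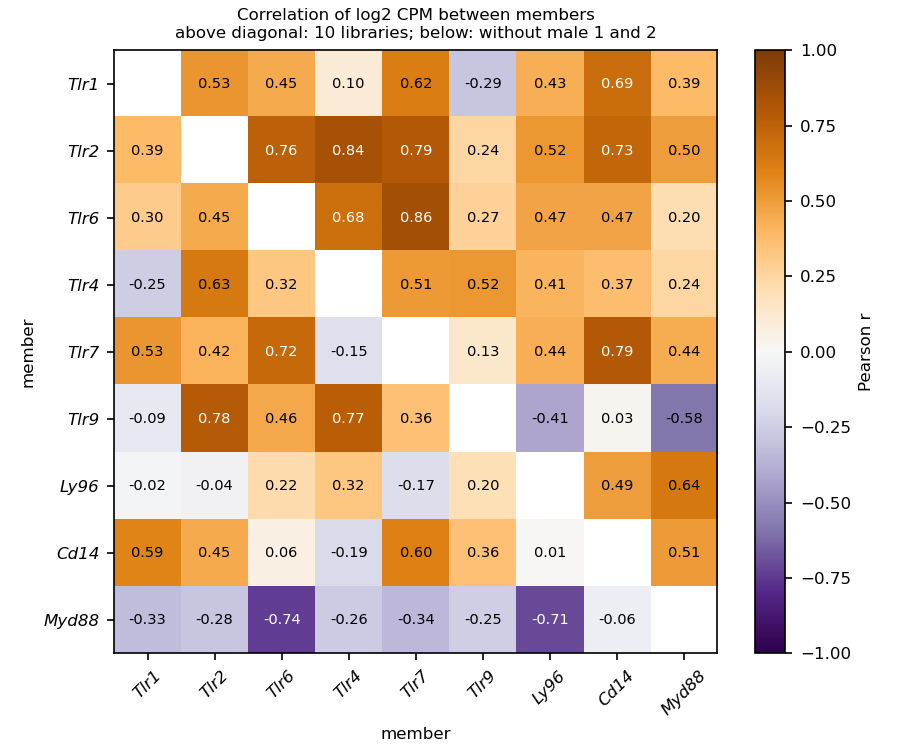
Pearson correlation of log2 CPM between each pair of the 9 tested members, over 10 libraries above the diagonal and over the 8 libraries without male replicates 1 and 2 below it. Above the diagonal 33 of 36 values exceed 0 and below it 21, with Myd88 negative against each other member below the diagonal. Over those 8 libraries Myd88 had a coefficient of variation of 3.88%, near the 3.49% that counting alone gives, so its values there may largely follow counting error.

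Genes with the most similar pattern over the 10 libraries were sought among 11442 genes with a symbol and at least 1 CPM. For Tlr2 these were Acvrl1 (r = 0.98), Slc31a2 (0.98) and Arid5b (0.96). For Tlr7 they were Ms4a6b (0.97), Alox12e (0.97) and Tes (0.96), for Cd14 Pgm1 (0.96), Igfbp4 (0.94) and Tifab (0.94), and for Tlr6 Gpr137b-ps (0.94), Zbtb42 (0.93) and Stambpl1 (0.93). Tlr4 was most like Acpp (0.96), Dmxl2 (0.94) and Impa1 (0.93), Tlr9 most like Mapk7, Khnyn and Ttc21b (each 0.97 or 0.98), and Myd88 most like Tmx2 (0.98), Jpt1 (0.98) and Cops8 (0.97). Over the 8 libraries without male replicates 1 and 2, r for these pairs ran from 0.76 (Myd88 with Cops8) to 0.96 (Tlr7 with Ms4a6b). It was 0.85 for Tlr9 with Mapk7. None of the lists shared a gene or held another member. The highest of so many correlations over 10 points is high by selection, and the points share libraries.

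Markers of several cell types, progenitors included, varied with some of the members and less with others. The 7 monocyte markers, Csf1r and Ly6c2 among them, summed to between 258 and 462 CPM in female mice and between 324 and 794 CPM in male mice, with male replicate 1 highest and no marker at 0. The mean of these markers on the log2 scale correlated with Tlr7 at r = 0.89 over 10 libraries and 0.72 over the 8 without male replicates 1 and 2, and with Cd14 at 0.88 and 0.79. The 8 stem and progenitor markers correlated with Tlr7 at r = 0.87 over 10 libraries and 0.90 over 8, and with Cd14 at 0.80 and 0.81. With the same markers Ly96 had 0.10 over 10 libraries and -0.22 over 8, Myd88 0.14 and -0.17, and Tlr4 0.40 and -0.15. The other tested members had positive values in both. Primary granule genes had the highest r of the 13 lists with Cd14, at 0.90 over 10 libraries and 0.89 over 8. Tlr2 followed the monocyte markers less closely once those males were left out, at 0.83 over 10 libraries and 0.48 over 8. The 6 plasmacytoid dendritic cell markers, among them Siglech and Bst2, summed to between 90.1 and 113 CPM in female mice and between 97.1 and 141 CPM in male mice. Most of this sum came from Bst2 and Tcf4, which averaged 54.6 and 42.6 CPM, against 2.38 CPM for Siglech. The mean of these markers on the log2 scale had r = 0.89 with Tlr7 over 10 libraries and 0.84 over 8. Tlr9, which plasmacytoid dendritic cells and B cells are known to carry, had r = -0.14 over 10 libraries and 0.41 over 8 with the same markers. With the B lineage markers Tlr9 had -0.20 over 10 libraries and 0.08 over 8. The highest values of Tlr9 over 8 libraries among the 13 lists were with primary granule and macrophage markers, at 0.63 each.

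The 9 macrophage markers summed to between 15.7 and 46.4 CPM in female mice and between 9.20 and 93.4 CPM in male mice, and the 8 B lineage markers to between 10.4 and 15.1 CPM in female mice and between 14.0 and 42.9 CPM in male mice. No marker of any list was at 0 over the 10 libraries together, and Flt3 stands in 2 lists. Of the 77 markers kept by the filter edgeR and limma-voom called 0. DESeq2, which tested all 86, called 8, where its share over all genes was 0.337% (60 of 17827). By edgeR 31 of the 77 had an unadjusted p under 0.05, with 27 lower and 4 higher in females, where the share over all genes was 9.17%. Without male replicates 1 and 2 it was 17 of 78, with 11 lower and 6 higher in females, where the share over all genes was 5.60%. Mature neutrophil markers correlated with Tlr2 at r = 0.82 over 10 libraries and 0.55 over 8, and with Cd14 at 0.45 and -0.21. The sum of the 7 erythroid markers did not overlap between the sexes. It ran between 3098 and 6114 CPM in female mice and between 7393 and 33486 CPM in male mice. Hemoglobin genes weighed heavily in it, with Hba-a1 averaging 4545.5 CPM and Hbb-bs 3282 CPM over all mice. Of the 7 markers 2 had a higher mean in females. Among single genes tested, the sexes lay apart in 1.93%. The erythroid markers, as a mean on the log2 scale, correlated with Tlr2 at r = 0.54 over 10 libraries and -0.11 over 8. The sums of the other lists overlapped. They ran for 4 primary granule genes between 2533 and 4229 CPM in female mice and between 3290 and 4500 CPM in male mice, and for 6 dendritic cell markers between 69.2 and 80.5 CPM in female mice and between 62.0 and 89.5 CPM in male mice. For T and natural killer cells they ran between 30.1 and 48.1 CPM in female mice and between 45.3 and 78.4 CPM in male mice. Nearly all of that sum was Nkg7, which averaged 46.1 CPM against 0.248 CPM for Cd3e. For mast cells, basophils and eosinophils the sums ran between 1169 and 2480 CPM in female mice and between 1697 and 3318 CPM in male mice. Megakaryocyte markers ran between 967 and 1266 CPM in female mice and between 816 and 1076 CPM in male mice, and endothelial markers between 45 and 75.5 CPM in female mice and between 46.6 and 65.9 CPM in male mice. These cells share markers and receptors, all values come from the same 10 libraries, and the part of any cell type in the levels of the members was not tested.

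**Figure D5:**
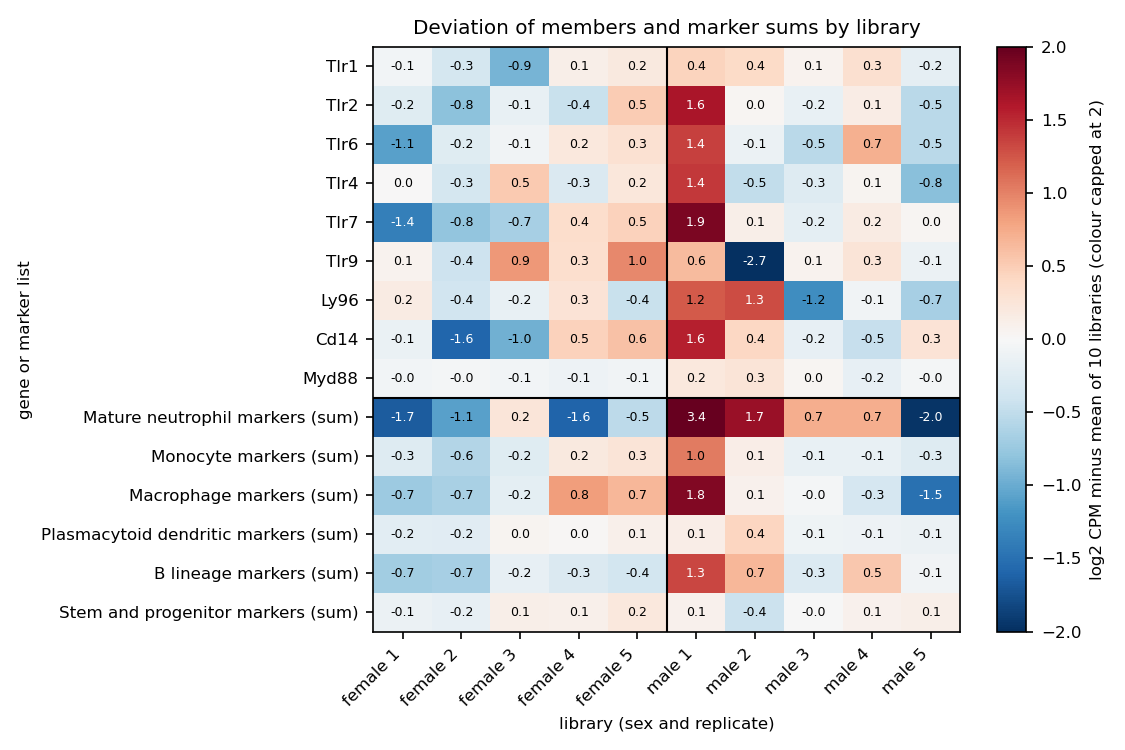
Rows give the log2 CPM of each tested member (top) and the summed level of 6 marker lists (bottom) as the deviation from the mean of the 10 libraries, with females in the left 5 columns and males in the right 5. The male replicate 1 column is above 0 in each member row and highest for the mature neutrophil, monocyte, macrophage and B lineage sums.

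Beyond the 10 members, 77 other genes of the pathway were examined, and 61 of them had enough counts to be tested. None was called by edgeR in either direction, and the fold changes were split evenly, 31 negative and 30 positive, with a median of -0.0027. By edgeR, 2 had an unadjusted p under 0.05 in the direction of higher and 7 in that of lower levels in females, where the shares over all genes were 3.76% and 5.41%. Without male replicates 1 and 2 the balance turned, with 3 higher and 1 lower, where the shares over all genes were 3.65% and 1.94%. DESeq2 and limma-voom called 0 of them as well. By DESeq2 12 of 77 had an unadjusted p under 0.05, with 2 higher and 10 lower in females. By limma-voom it was 7 of 61, with 2 higher and 5 lower. The shares over all genes, in either direction, were 7.32% and 8.42%.

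Of the other receptors, Tlr12, a mouse receptor for profilin, had 4.02 ± 1.13 CPM in female mice and 3.13 ± 0.724 CPM in male mice (n = 5 per sex, SD; log2 fold change 0.36, adjusted p = 0.512 by edgeR). Per kilobase it stood near Tlr2, with a median ratio to Tlr2 of 0.888 over 10 mice, a comparison chosen after the values were seen. Tlr13, which binds bacterial ribosomal RNA, had 0.867 ± 0.543 CPM in female mice and 2.83 ± 3.39 CPM in male mice (n = 5 per sex, SD; log2 fold change -1.70, adjusted p = 0.506 by edgeR), and male replicate 1 alone had 8.77 CPM. Tlr8 had a log2 fold change of -0.62 (SE 0.68, adjusted p = 0.646 by edgeR). Tlr5, the flagellin receptor, had 7 counts in females and 39 in males over 5 libraries each, and Tlr11 had 4 counts in females and 0 in males, so neither was tested. Tlr5, Tlr8 and Tlr13 were highest in male replicate 1, Tlr12 in female replicate 5 and Tlr11 in female replicate 2. Cd180 and Ly86, which encode a receptor related to TLR4 and its MD-2-like partner, were more abundant than their counterparts. Per kilobase Cd180 exceeded Tlr4 by 4.30 to 14.9 times and Ly86 exceeded Ly96 by 4.73 to 21.5 times, in 10 of 10 mice each.

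Of the other adaptors, 4 were tested and 3 had a negative fold change. Ticam1, the adaptor of TLR3 also known as TRIF, had 15.5 ± 1.93 CPM in female mice and 15 ± 1.51 CPM in male mice (n = 5 per sex, SD; log2 fold change 0.05, adjusted p = 0.831 by edgeR). Tirap, which links TLR2 and TLR4 to MyD88, had 5.34 ± 0.928 CPM in female mice and 6.97 ± 1.46 CPM in male mice (n = 5 per sex, SD; log2 fold change -0.38, adjusted p = 0.506 by edgeR). Ticam2, which links TLR4 to TRIF, had a log2 fold change of -0.24 (SE 0.18, adjusted p = 0.543 by edgeR). The 8 genes for ligand handling, folding and transport gave 5 negative and 3 positive fold changes. Among them Cd36, a scavenger receptor that assists TLR2, had 12.9 ± 2.06 CPM in female mice and 19.6 ± 7.47 CPM in male mice, and Slc15a4, an endosomal transporter needed for TLR7 and TLR9 signalling, had 28.8 ± 4.26 CPM in female mice and 23.4 ± 3.73 CPM in male mice (n = 5 per sex, SD).

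Downstream, the 19 kinases and ubiquitin enzymes tested gave 5 negative and 14 positive fold changes with a median of 0.04. Ripk1, a kinase on the route to NF-kB, had 42.7, 42.9, 44.8, 41.8 and 42.6 CPM in female mice and 37.0, 28.1, 37.7, 40.7 and 39.7 CPM in male mice. All 5 females were above all 5 males, yet the log2 fold change of 0.23 (SE 0.10) had an adjusted p of 0.506 by edgeR. Over all genes tested the sexes lay apart, in either direction, in 1.93%. Traf3, a ubiquitin ligase of the interferon branch, had a log2 fold change of 0.33 (SE 0.17) and Irf7, a transcription factor of that branch, one of 0.23 (SE 0.12), each with an adjusted p of 0.506 by edgeR. On the negative side, Nfkbia, the inhibitor of NF-kB that NF-kB itself induces, had 17.6 ± 2.49 CPM in female mice and 23.2 ± 4.02 CPM in male mice (n = 5 per sex, SD). The log2 fold change came to -0.40 (SE 0.14, adjusted p = 0.506 by edgeR). Of the 19 inflammatory target genes, 11 had too few counts to be tested, and 6 of the other 8 had a negative fold change. Il1b had 1.09 ± 0.470 CPM in female mice and 2.38 ± 1.38 CPM in male mice, and Ccl3 2.85 ± 0.987 CPM in female mice and 4.77 ± 1.72 CPM in male mice (n = 5 per sex, SD). Their log2 fold changes were -1.13 and -0.74, and neither was called (adjusted p = 0.506 each by edgeR).

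Without male replicates 1 and 2, 12 of the 14 tested pathway genes named here had the same sign of fold change, and none was called (adjusted p between 0.525 and 0.9997 by edgeR). The male mean of Il1b was then 1.49 CPM with a log2 fold change of -0.47, that of Tlr13 1.23 CPM with -0.51, that of Cd36 15.6 CPM with -0.29 and that of Ccl3 3.69 CPM with -0.37, each closer to 0 than with all mice. The fold change of Ripk1 was 0.12, that of Traf3 0.14, that of Slc15a4 0.17, that of Nfkbia -0.24 and that of Tirap -0.22. Tlr8 at 0.13 and Ticam1 at -0.05 had the other sign. Tlr12 at 0.46 and Irf7 at 0.36 were farther from 0, and Irf7 had the lowest adjusted p of these genes, 0.525 by edgeR.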

How the data were processed

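Bulk RNA-seq was made from 5 female and 5 male mice, 1 library each. The authors deposited raw read counts per Ensembl gene; per the submitters' processing notes the tools were STAR, featureCounts and DESeq, and the build was GRCm38.p6 (mm10), with no tool version. The strand setting and the treatment of reads that fit several genes were not given in the sources used here. A deposited normalized table was not used.

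Of 25178 genes, 25116 were found by identifier in GENCODE vM21, which gave positions and exon lengths. Genes were filtered with filterByExpr by sex (14674 kept) and scaled by TMM. The edgeR 4.0.16 quasi-likelihood test (robust, R 4.3.3) had sex as its only term, with Benjamini-Hochberg adjustment over the genes tested and a call at an adjusted p under 0.05. The SE is the fold change divided by the square root of F. CPM uses TMM-scaled totals; log2 CPM has a prior count of 2. Libraries held 20754101 to 24759687 counts, and limits from counts cover counting error only. The intervals of the edgeR fold changes rest on the SE of the quasi-likelihood fit, so they also include variation between mice. Alternatives were other filters, RLE or no scaling, DESeq2 1.42.0, limma-voom (limma 3.58.1), a replicate term and left-out libraries. The procedure was tested on simulated counts.

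The members, pathway genes and marker lists were chosen with earlier results of these data known. All members are named; of other pathway genes the rule names up to 4 per direction of smallest p with at least 1 CPM, the other Toll-like receptors and adaptors Tirap, Ticam1 and Ticam2, and the 3 most correlated genes for each of the 7 members with at least 1 CPM (not Tlr1, Tlr3 and Ly96). Cd180, Ly86 and Acaa1a were named after their values were seen. Of the 13 marker lists, those of primary granules, dendritic, T and natural killer, erythroid, megakaryocyte, mast, basophil and eosinophil, and endothelial cells were also summed.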

Additional observations from a re-analysis of the deposited data

Results flagged for a closer look

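In 4 of the 20 groups examined (10 genes in each sex), 1 mouse lay farther from the other 4 than Dixon's 95% critical ratio of 0.71 allows, where chance gives about 1 in 20. All 4 were the highest mouse among the males, and each was male replicate 1. Tlr2 had 12.2 CPM there, against 2.63 to 4.25 CPM in the other 4 males. Tlr4 had 4.11 CPM, against 0.798 to 1.56 CPM, Tlr7 had 4.41 CPM, against 0.982 to 1.28 CPM, and Cd14 had 2.85 CPM, against 0.641 to 1.25 CPM. The same library had the highest marker sum for 8 of the 13 cell type lists, which were mature neutrophils, primary granules, monocytes, macrophages, B lineage, T and natural killer cells, erythroid cells, and mast cells with basophils and eosinophils. Whether these flags share a source was not tested.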

How the results depend on the processing

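No member and no other pathway gene was called under any of the 18 alternatives. The number of all genes called was 8, and it was 60 with DESeq2, 5 with the replicate block, 12 without male replicates 1 and 2, and 6 to 10 without each mouse in turn. The direction of 155 of 160 fold changes of members held under the alternatives. Tlr4 (-0.17) turned positive in 4 of them, to 0.038 with the replicate block, 0.42 without male replicate 1, 0.37 without male replicates 1 and 2, and 0.030 with limma-voom, and ran from -0.35 to 0.42 without each mouse in turn. Ly96 (-0.57) turned to 0.56 without male replicates 1 and 2. The filter at 1 CPM in 5 libraries left out Tlr1 and Ly96. The causes were not tested. The lowest unadjusted p of any member was 0.048, for Tlr7 without female replicate 5. Same-numbered mice had correlations of deviations between -0.30 and -0.01, none above 0.1, so no sign of pairing by replicate number was seen. Such correlations cannot show that the mice were unpaired. Without a scaling factor the female mean of Myd88 was 35.3 CPM, against 34.4 CPM with it. Scaling moved the median fold change of all genes between -0.02 and 0.06.

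Depth limits Tlr3, Ly96, Tlr1, Cd14 and Tlr7 most, with 37 to 322 counts each over 10 libraries. With 5 mice per sex the 95% interval of Tlr7 spans -2.01 to 0.16 and that of Tlr2 -1.5 to 0.25. The groups are 5 mice each of 1 strain, and the bead-depleted cells still held mature blood cell transcripts.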
